A study of Homo sapiens with 48 samples.

Results

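The genes DPPA2, DPPA4 and DNMT3B were measured with 8 of the 1113 probes on a targeted RNA panel that covers 452 genes. Every probe that carries one of these 3 gene symbols was taken, which gave 3 probes for DPPA2, 3 for DPPA4 and 2 for DNMT3B. All 8 passed the filter on low counts in all 15 comparisons below. DPPA2 and DPPA4 (developmental pluripotency associated 2 and 4) are small DNA-binding proteins with a SAP domain that bind each other and sit at CpG-rich promoters, where they counter the gain of DNA methylation. DNMT3B is a de novo DNA methyltransferase, an enzyme that places methyl groups on CpG sites that were unmethylated before. All of these genes are known for high expression in human pluripotent stem cells and for being switched off as the cells differentiate.

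The assay was RASL-Seq, in which pairs of DNA oligonucleotides are ligated where they anneal side by side on captured poly(A) RNA, and the joined products are amplified and read. All 48 libraries came from WA09, also called H9, an established line of human embryonic stem cells. The hESC group (4 libraries) had no treatment. The ectoderm group (4 libraries) was neurally induced in E6 medium for 6 days with LDN-193189 at 100 nM, a BMP receptor inhibitor, and A83-01 at 2 µM, an inhibitor of TGF-beta and Nodal receptors. The mesoderm and endoderm groups (4 libraries each) were made with commercial induction kits in 5 days. Embryoid bodies, aggregates that differentiate without a directing signal, were seeded with 20000 cells per well and grown in E6 medium for 7 days. For their first 24 hours they had either CEPT (a mixture of emricasan, trans-ISRIB, chroman 1 and polyamines that protects dissociated cells) or Y-27632 (an inhibitor of the kinase ROCK). The 16 libraries of the former are called CEPT EB here, and the 16 of the latter Y27 EB. The labels do not say whether the libraries of a group came from separate cultures, so p-values measure the spread between libraries, which may be technical.

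Library totals ran from 379810 to 5577868 reads with a median of 3583316, and 1 library, Y27 EB 15 at 379810 reads, lay under 0.25 of that median. Of the markers of each labelled cell type on the panel, 4 of 7 for hESC, 4 of 7 for ectoderm, 3 of 3 for mesoderm and 5 of 5 for endoderm were highest in the group of that name. The hESC marker POU5F1 was low even in hESC (9.69 CPM), and 1 gene of the pluripotency list below, LEFTY2, took a mean of 278100 CPM in the endoderm libraries. Summed mesoderm markers had a median of 10.4 CPM in the Y27 EB libraries, with a highest value of 2588. Summed neuron markers ranged from 6360 to 20070 CPM over the EB libraries against 1725 to 2034 in hESC. Reads of the 8 probes made up 0.678% ± 0.0682 (SD, n = 4) of all reads in hESC, and 0.102% in ectoderm, 0.103% in mesoderm and 0.0816% in endoderm. They made up 0.180% ± 0.0415 (SD, n = 16) in CEPT EB and 0.232% ± 0.0563 (SD, n = 16) in Y27 EB. In lysates of many cells, fewer cells of a type and less RNA per cell cannot be told apart.

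The probes are named by the authors with a number, a transcript and a position in it. The DPPA2 probes are 194 and 193 (positions 659 and 818 of NM_138815) and 195 (position 1179). The DPPA4 probes are 196, 197 and 198 (positions 1071, 1607 and 2054 of NM_018189), and the DNMT3B probes are 191 and 192 (positions 3415 and 4196 of NM_006892). Read against GENCODE release 29 on GRCh38, DPPA2 probes 194 and 193 fall in the coding part of exon 6 of 9, and DPPA2 probe 195 in the 3′ UTR in exon 9. All DPPA4 probes fall in the 3′ UTR in exon 7 of 7, and both DNMT3B probes in the 3′ UTR in exon 23 of 23. The DNMT3B positions lie in 4 of 6 coding transcripts, so they do not tell those splice forms apart and miss the others. All DPPA4 positions lie in 1 of 2 coding transcripts, so the other is not measured. The version of each transcript is not given in the sources used here, so a position is approximate. Probes differ in how well they anneal and ligate, so levels are compared between libraries for 1 probe, never between probes.

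DPPA2 (chr3:109293788-109316517, minus strand) and DPPA4 (chr3:109326141-109337572, minus strand) are neighbours that are 9623 bases apart, and DNMT3B lies at chr20:32762385-32809356 on the plus strand. The 250 bases before the first listed RefSeq start of each gene (GRCh38.p14) are shown. They were chosen because the 3 genes fell together in every comparison with hESC and because their proteins act at CpG sites. They are written 5′ to 3′ on the gene's own strand, and capitals mark CpG sites.
DPPA2, chr3:109316518-109316767, minus strand: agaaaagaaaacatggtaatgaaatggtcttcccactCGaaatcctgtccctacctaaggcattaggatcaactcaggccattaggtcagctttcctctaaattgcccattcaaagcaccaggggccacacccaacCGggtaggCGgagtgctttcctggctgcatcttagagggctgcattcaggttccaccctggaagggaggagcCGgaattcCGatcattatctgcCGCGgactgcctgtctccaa
DPPA4, chr3:109337547-109337796, minus strand: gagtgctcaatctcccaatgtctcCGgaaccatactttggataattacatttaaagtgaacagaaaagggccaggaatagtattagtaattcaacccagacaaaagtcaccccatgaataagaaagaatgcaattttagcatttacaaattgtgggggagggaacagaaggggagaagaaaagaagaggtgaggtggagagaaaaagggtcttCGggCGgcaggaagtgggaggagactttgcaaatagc
DNMT3B, chr20:32779602-32779851, plus strand: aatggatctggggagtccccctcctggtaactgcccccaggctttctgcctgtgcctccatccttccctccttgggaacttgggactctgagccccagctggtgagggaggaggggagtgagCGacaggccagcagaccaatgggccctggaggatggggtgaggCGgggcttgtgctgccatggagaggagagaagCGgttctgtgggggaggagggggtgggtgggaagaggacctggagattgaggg
The DPPA2 window holds 7 CpG sites, and 41.1% of the 35116 promoter windows of the same length hold fewer. The DPPA4 and DNMT3B windows hold 3 each, and 22.9% of windows hold fewer. The median over all windows was 11. GC content was 52.0% for DPPA2, 43.2% for DPPA4 and 64.0% for DNMT3B. The DNMT3B window lies inside the GENCODE gene, since the RefSeq start used is an internal one. The transcript that carries the DNMT3B probes starts upstream of it, at chr20:32762385. The DNMT3B values given here are therefore not those of that transcript's promoter. In the DPPA4 window, 26 bases overlap its exon. A search of both strands for the octamer ATGCAAAT (in 1.63% of all windows) and the SOX core ACAAAG (in 13.7%), which do not overlap, found neither in these windows.

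All 8 probes were lower in every differentiated group than in hESC. Each was called at an adjusted p under 0.05 by the quasi-likelihood test of edgeR (Benjamini-Hochberg), which is the test behind every call and adjusted p of a probe below. The background was high in all of these comparisons. In ectoderm 8 of 8 were called, where 81.7% of the 903 tested probes were. In mesoderm 8 of 8 were called against 77.5% of tested probes, and in endoderm 8 of 8 against 78.2%. In CEPT EB 8 of 8 were called against 73.4% of 940 tested probes, and in Y27 EB 8 of 8 against 74.1% of 963. The median log2 change of the 8 probes was -2.76 in ectoderm, -2.76 in mesoderm and -2.81 in endoderm, with -2.30 for CEPT EB and -2.31 for Y27 EB. The median of all tested probes in the same fits was 0.14, -0.18, 0.00, 0.47 and 0.39. In none of the 40 pairs of a probe and a differentiated group did any library reach the hESC range. The share of all tested probes without such overlap is not given here, so this does not set the 8 probes apart.

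**Figure D1:**
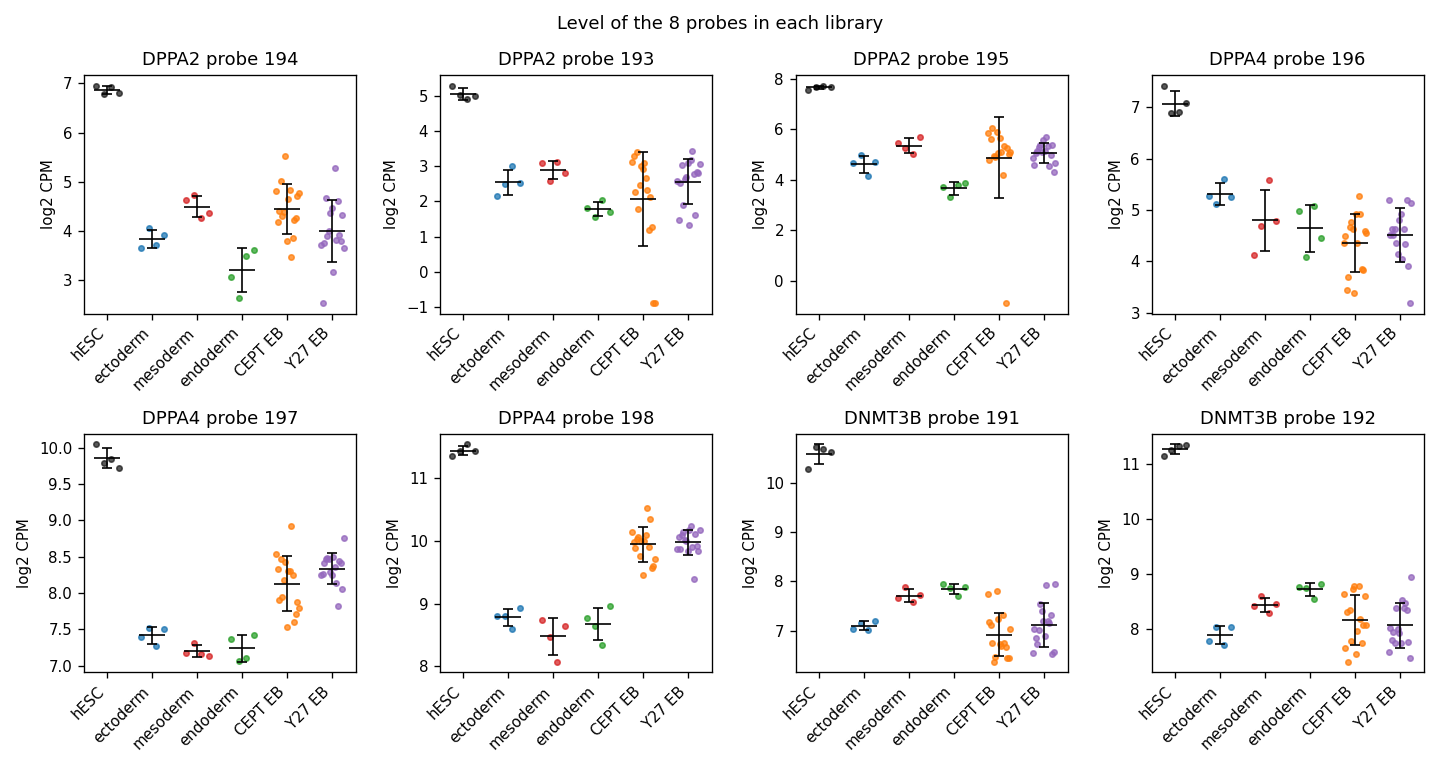
Level of each of the 8 probes in each of the 48 libraries as log2 CPM (prior count of 2), by group; points are libraries, the bar is the mean and the whiskers are 1 SD. All hESC libraries lie above all other libraries for each probe, and for DPPA4 probes 197 and 198 both embryoid body arms lie between hESC and the directed lineages.

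**Figure D2:**
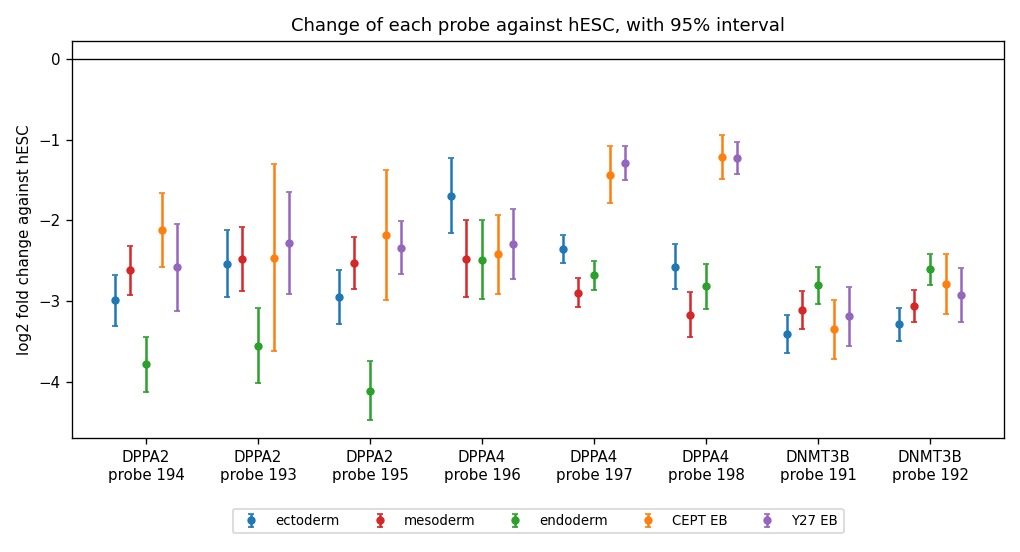
The log2 fold change of each probe against hESC in the 5 differentiated groups, with 95% intervals by normal approximation from an SE derived from edgeR's F statistic. All 40 values are below 0, DPPA2 is lowest in endoderm, and DPPA4 probes 197 and 198 are nearest to 0 in both embryoid body arms.

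DPPA2 is given by its most abundant probe, 195, in the 3′ UTR. Its levels in CPM (counts relative to library size, scaled by TMM over all 48 libraries) were 186.9, 203.0, 209.6 and 202.2 in the hESC libraries. They were 24.4, 30.5, 17.2 and 25.7 in ectoderm, 42.6, 37.8, 31.3 and 51.4 in mesoderm, and 12.4, 9.27, 13.2 and 13.99 in endoderm. The 4 endoderm libraries were the lowest of the controls, with no overlap with ectoderm or mesoderm. In CEPT EB the lowest, median and highest values were 0, 33.6 and 66.2 CPM. In Y27 EB they were 19.3, 33.8 and 51.6 CPM. Both arms overlapped ectoderm and mesoderm, and 15 of 16 CEPT EB and 16 of 16 Y27 EB libraries lay above all endoderm libraries.

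The log2 change of DPPA2 probe 195 against hESC was -2.94 ± 0.17 (SE) in ectoderm (7.70-fold lower, adjusted p = 6.33e-12), -2.52 ± 0.16 in mesoderm and -4.11 ± 0.19 in endoderm (17.2-fold lower, adjusted p = 2.09e-13). It was -2.18 ± 0.41 in CEPT EB (4.54-fold lower, adjusted p = 5.59e-05), and Y27 EB had -2.34 ± 0.17 (5.05-fold lower, adjusted p = 2.61e-11). The coding-sequence probes moved alike. DPPA2 probe 194 averaged 116.5 CPM ± 6.86 (SD, n = 4) in hESC and between 8.92 and 22.5 CPM in the other groups. DPPA2 probe 193 averaged 32.9 CPM ± 3.91 (SD, n = 4) in hESC and between 2.92 and 6.98 CPM elsewhere, where single libraries had 61 reads or fewer.

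Between the directed lineages, DPPA2 was lowest in endoderm. All 3 probes were higher in mesoderm than in endoderm, by 1.16, 1.08 and 1.58 (log2) for probes 194, 193 and 195. All 3 were also higher in ectoderm than in endoderm, by 0.79, 1.02 and 1.16. The direction held under all of the scalings tried, but the calls against ectoderm did not survive a single fit of all 48 libraries (adjusted p = 0.161, 0.289 and 0.0705 by edgeR). In that fit probe 193 also lost its call between mesoderm and endoderm (adjusted p = 0.126). Of all 8 probes, 7 were called between mesoderm and endoderm (76.2% of tested probes) and 7 between ectoderm and endoderm (79.7%), shares close to the background. Between ectoderm and mesoderm 6 of 8 were called (80.2%), among them 1 DPPA2 probe, 195, at -0.42 (adjusted p = 0.0319). DPPA2 probe 194 was at -0.37 (adjusted p = 0.0559) and probe 193 at -0.06 (adjusted p = 0.835).

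Both EB arms had more DPPA2 than endoderm. In CEPT EB, probes 194 and 195 were higher by 1.51 ± 0.35 and 1.78 ± 0.58 (log2, SE) and probe 193 did not pass (0.94 ± 0.82, adjusted p = 0.295). In Y27 EB all 3 were higher, by 0.96 ± 0.38, 1.04 ± 0.45 and 1.53 ± 0.24 for probes 194, 193 and 195. The call of probe 193 held in 4 of 9 other settings and 10 of 20 fits with a library left out. It was lost in the single fit of 48 libraries (adjusted p = 0.12 by edgeR). For probe 194 the call held in 6 of 9 and 18 of 20, and for probe 195 in 9 of 9 and 20 of 20. Of the 8 probes, 5 were called in CEPT EB against endoderm (78.9% of tested probes) and 7 in Y27 EB against endoderm (77.5%), the latter falling to 4 without endoderm library 1 and to 3 without endoderm library 2. Against ectoderm, 1 of 6 tests of a DPPA2 probe passed, probe 194 in CEPT EB at 0.72 ± 0.31 (adjusted p = 0.0432). That call held in 4 of 9 other settings and 10 of 20 fits with a library left out, with an adjusted p of 0.201 for reference genes and 0.059 for library totals. Against mesoderm 0 of 6 passed with edgeR.

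Single CEPT EB libraries lacked a DPPA2 probe altogether. In CEPT EB 13 probe 195 had 0 reads, where the arm's median level would have given 70.7 reads, and a count of 0 allows up to 3 reads or 1.43 CPM. The same library had 38 reads of DPPA2 probe 194 and 8 of probe 193. In CEPT EB 15 and 16 probe 193 had 0 reads, where the median level would have given 13 and 18.7 reads, while probe 195 had 88 and 132. These limits cover counting error only, since PCR products are counted without molecular identifiers.

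DPPA4, the partner protein of DPPA2, showed a different order of groups. Its most abundant probe, 198, had 2602, 2762, 2962 and 2750 CPM in the hESC libraries. It had 444.4, 446.4, 387.2 and 485.1 CPM in ectoderm, 426.8, 353.1, 269.2 and 400.0 in mesoderm, and 435.7, 397.7, 324.4 and 495.5 in endoderm. The 3 directed lineages overlapped one another. The lowest, median and highest values were 701.7, 1019 and 1475 CPM in CEPT EB, while Y27 EB had 673.8, 1021 and 1205 CPM. Every one of the 32 EB libraries lay above all 12 directed-lineage libraries and below all hESC libraries.

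Against hESC, the log2 change of DPPA4 probe 198 was -2.57 ± 0.14 (SE) in ectoderm (adjusted p = 2.49e-12), -3.17 ± 0.14 in mesoderm and -2.81 ± 0.14 in endoderm. It was -1.22 ± 0.14 in CEPT EB (2.33-fold lower, adjusted p = 4.62e-08), and Y27 EB had -1.23 ± 0.10 (2.34-fold lower, adjusted p = 2.55e-10). The EB decreases depended on how libraries were scaled. With libraries scaled to the 4 reference genes on the panel (ACTB, GAPDH, PGK1 and RPL13A), the median of all tested probes moved to 1.28 in Y27 EB and 0.88 in CEPT EB. DPPA4 probes 198 and 197 in Y27 EB were then at -0.31 (adjusted p = 0.275) and -0.38 (adjusted p = 0.169), and no longer called. Relative to that median they were at -1.59 and -1.67. In CEPT EB they stayed called under that scaling, at -0.82 and -1.06.

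The EB arms kept more DPPA4 probe 198 than each directed lineage. CEPT EB was higher than ectoderm by 1.19 ± 0.17 (log2, SE; 2.29-fold, adjusted p = 8.17e-07), than mesoderm by 1.55 ± 0.17 and than endoderm by 1.44 ± 0.17. Y27 EB was higher than ectoderm by 0.89 ± 0.12 (1.85-fold, adjusted p = 6.33e-07), than mesoderm by 1.40 ± 0.14 and than endoderm by 1.34 ± 0.13. Probe 197 was higher in the same 6 comparisons, by 0.61 to 1.15. These 12 calls held in every alternative run for them, with values from 0.56 to 2.27. By TMM, the median of all tested probes was 0.18, 0.28 and 0.53 in CEPT EB against ectoderm, mesoderm and endoderm. For Y27 EB the medians were -0.09, -0.001 and 0.35. The 2.27 is that of probe 198 in Y27 EB against endoderm with library totals alone, where the median was 1.27. Of the 8 probes, 4 were called in CEPT EB against ectoderm (72.8% of tested probes), 3 in CEPT EB against mesoderm (73.1%), 3 in Y27 EB against ectoderm (72.6%) and 3 in Y27 EB against mesoderm (70.7%). These shares are under the background, and the DPPA4 probes provide 2 or 3 of the calls in each.

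DPPA4 probe 196, the one nearest the coding sequence, did not follow the others. Its CPM were 170.8, 117.4, 119.1 and 134.6 in hESC, 38.3, 33.9, 48.3 and 37.6 in ectoderm, 17.0, 25.2, 47.5 and 27.1 in mesoderm, and 30.8, 16.5, 33.0 and 21.4 in endoderm. The lowest, median and highest values were 9.90, 22.4 and 38.1 CPM in CEPT EB, while Y27 EB had 8.59, 23.3 and 36.3 CPM. The EB libraries thus overlapped every lineage, and most lay under the ectoderm libraries. Probe 196 was lower than in ectoderm by -0.87 ± 0.29 (log2, SE) in CEPT EB (adjusted p = 0.00903), while Y27 EB had -1.05 ± 0.25 (adjusted p = 0.000606), the latter at -0.33 (adjusted p = 0.31) with library totals alone. Against hESC it was at -2.42 ± 0.25 in CEPT EB, and Y27 EB had -2.29 ± 0.22.

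The ratio of 2 probes of a gene within a library does not depend on library scaling. The log2 ratio of DPPA4 probe 198 to 196 was 4.36 ± 0.32 (SD, n = 4) in hESC, 5.58 ± 0.53 (n = 16) in CEPT EB, with Y27 EB at 5.46 ± 0.52 (n = 16). All 32 EB libraries lay above all hESC libraries. The difference from hESC was 1.22 for CEPT EB, with 1.10 for Y27 EB, and for probe 197 to 196 it was 0.99 and 1.05 (exact two-sided permutation test, p = 0.000413 for each, adjusted p = 0.00433 over 42 tests). The directed lineages had lower ratios of 198 to 196 than the EB arms, at 3.47 ± 0.33 in ectoderm, 3.68 ± 0.88 in mesoderm and 4.03 ± 0.61 in endoderm (SD, n = 4 each). The 12 differences between an EB arm and a lineage for these ratios were 1.18 to 2.11, with an adjusted p of at most 0.00144 (exact permutation test, added after the values were seen). The ratio of probe 198 to 197 was within 0.23 of hESC in both arms, and neither difference passed. It was higher in the arms than in the lineages by 0.20 to 0.53, with 5 of 6 of these differences called and CEPT EB against endoderm not (exact permutation test, adjusted p = 0.0732). Probe 196 had 4 to 194 reads in the EB libraries against 424 or more for probe 198, and both lowest counts are those of the shallow Y27 EB 15. In CEPT EB its lowest count was 29. The directed-lineage libraries had 41 to 117 reads of probe 196. Whether its low counts, a transcript end between the probes or another property of the probe moves the ratio was not tested.

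**Figure D3:**
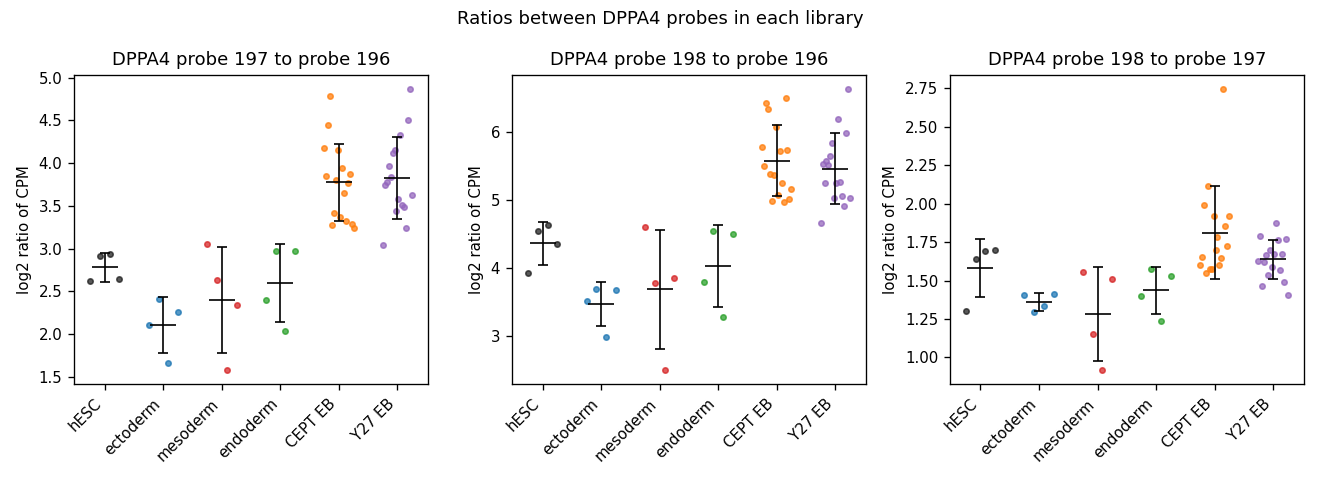
The log2 ratio between 2 DPPA4 probes in each library, by group, with the mean and 1 SD. Probe 197 and probe 198 are high relative to probe 196 in all embryoid body libraries compared with hESC, while the ratio of probe 198 to probe 197 in hESC overlaps that of both embryoid body arms.

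Between the lineages, all 3 DPPA4 probes were higher in ectoderm than in mesoderm, by 0.78, 0.54 and 0.59 (log2) for probes 196, 197 and 198. With all 48 libraries in a single fit these were 0.44, 0.22 and 0.28 and none was called (adjusted p = 0.288, 0.328 and 0.142 by edgeR). Probes 196 and 197 were higher in ectoderm than in endoderm, by 0.79 and 0.32, and at 0.64 and 0.17 neither was called in the single fit (adjusted p = 0.116 and 0.462). Between mesoderm and endoderm the direction depended on scaling, with probe 198 at -0.35 (adjusted p = 0.0248) by TMM and at 0.27 (adjusted p = 0.0675) with library totals alone. The level of DPPA4 was therefore not ordered between mesoderm and endoderm.

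Among the directed lineages, DNMT3B was lowest in ectoderm. Probe 192 had 2252, 2443, 2558 and 2578 CPM in the hESC libraries. It had 220.9, 261.8, 210.1 and 261.9 CPM in ectoderm, 340.0, 386.7, 312.0 and 351.2 in mesoderm, and 435.7, 428.3, 374.6 and 450.8 in endoderm. Ectoderm was below both other lineages in all libraries, and mesoderm overlapped endoderm. The lowest, median and highest values were 169.6, 279.2 and 440.8 CPM in CEPT EB, while Y27 EB had 178.3, 250.8 and 495.5 CPM, so both arms overlapped all 3 lineages.

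The log2 change of DNMT3B probe 192 against hESC was -3.29 ± 0.10 (SE) in ectoderm (9.75-fold lower, adjusted p = 7.08e-16), -3.06 ± 0.10 in mesoderm and -2.61 ± 0.10 in endoderm (6.09-fold lower, adjusted p = 1.59e-14). It was -2.79 ± 0.19 in CEPT EB (6.89-fold lower, adjusted p = 4.86e-12), and Y27 EB had -2.92 ± 0.17 (7.58-fold lower, adjusted p = 6.3e-13). Probe 191, upstream of it in the same exon, averaged 1531 CPM ± 200.3 (SD, n = 4) in hESC, 136.9 ± 9.12 in ectoderm, 209.6 ± 19.1 in mesoderm and 230.1 ± 16.4 in endoderm. The mean was 126.5 ± 42.8 (SD, n = 16) for CEPT EB, while Y27 EB averaged 144.2 ± 47.2 (SD, n = 16). Its log2 change against hESC was -3.41 ± 0.12 (SE) in ectoderm and -3.35 ± 0.19 in CEPT EB.

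DNMT3B was lower in ectoderm than in endoderm, by -0.61 ± 0.11 (log2, SE) for probe 191 (adjusted p = 8.05e-05) and -0.68 ± 0.10 for probe 192 (adjusted p = 2.94e-06). The direction held under every scaling tried, with -0.19 (adjusted p = 0.142) for probe 191 under library totals alone. Against mesoderm, ectoderm was lower by -0.30 ± 0.11 and -0.23 ± 0.10 for probes 191 and 192. For probe 192 that call held in 4 of 9 other settings and 4 of 8 fits with a library left out (adjusted p = 0.0661 in a single fit of 48 libraries). Mesoderm against endoderm was -0.31 ± 0.11 and -0.45 ± 0.10 by TMM, and 0.32 and 0.17 with library totals alone, so that order depended on scaling. By TMM, probe 191 was called lower in the EB arms than in mesoderm (-0.64 ± 0.21 for CEPT EB and -0.62 ± 0.22 for Y27 EB) and than in endoderm (-0.69 ± 0.21 and -0.63 ± 0.21). The more abundant probe 192 was called lower in 1 of these 4 comparisons, Y27 EB against endoderm (-0.56 ± 0.19, adjusted p = 0.0126), with 0.36 in place of that value for library totals alone (adjusted p = 0.187) and an adjusted p of 0.987 for reference genes. It was at -0.13 (adjusted p = 0.601) in CEPT EB against mesoderm, -0.40 (adjusted p = 0.0963) in Y27 EB against mesoderm and -0.32 (adjusted p = 0.175) in CEPT EB against endoderm. Under the scaling to reference genes the Y27 EB values of probe 191 were 0.11 against mesoderm (adjusted p = 0.784) and -0.03 against endoderm (adjusted p = 0.927), and CEPT EB against mesoderm was -0.59 (adjusted p = 0.0579). With library totals alone, probe 191 in CEPT EB was at -0.54 against mesoderm (adjusted p = 0.0646) and -0.23 against endoderm (adjusted p = 0.433). The call of probe 191 in Y27 EB against mesoderm held in only 2 of 10 other settings and 2 of 20 fits with a library left out. In CEPT EB against mesoderm it held in 5 of 9 and 19 of 20. Neither DNMT3B probe was called in either arm against ectoderm.

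The 3 genes therefore lost expression in different proportions, which was tested as the log2 ratio of 2 genes' mean log2 CPM within a library. These 45 tests were chosen after the values were seen. DNMT3B relative to DPPA4 was 1.46 ± 0.24 (SD, n = 4) in hESC, 1.25 ± 0.19 in mesoderm and 1.43 ± 0.19 in endoderm, but 0.33 ± 0.12 in ectoderm, 0.07 ± 0.48 (n = 16) in CEPT EB, with Y27 EB at -0.02 ± 0.41 (n = 16). The difference from hESC was -1.40 for CEPT EB (exact permutation test, adjusted p = 0.00265) and -1.48 for Y27 EB (adjusted p = 0.00186). It was -1.14 in ectoderm with p = 0.0286 (adjusted p = 0.0495), the smallest p that 4 against 4 libraries can give in this exact permutation test. Both arms were also lower than mesoderm and endoderm in this ratio, by -1.18 to -1.45. Against ectoderm the difference was -0.26 and -0.34 and did not pass (exact permutation test, adjusted p = 0.431 and 0.194). The DPPA4 mean in it averages probes that moved in opposite directions. Against ectoderm, probe 196 was lower in both arms, while probes 197 and 198 were higher. The ratio was not tested for single probes.

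Among the control groups, DPPA2 was lowest relative to the other 2 genes in endoderm. DNMT3B relative to DPPA2 was 5.41 ± 0.33 (log2, SD, n = 4) in endoderm against 4.39 ± 0.19 in hESC, 3.84 ± 0.10 in ectoderm and 3.83 ± 0.17 in mesoderm. All 4 endoderm libraries lay above those of the other 3 groups. DPPA4 relative to DPPA2 was 3.98 ± 0.20 in endoderm, 3.51 ± 0.16 in ectoderm, 2.93 ± 0.06 in hESC and 2.58 ± 0.22 in mesoderm, with no overlap between any of these groups. The EB arms, at 3.68 ± 0.80 for CEPT EB and 3.74 ± 0.57 for Y27 EB (SD, n = 16 each), overlapped endoderm in this ratio, with single libraries up to 5.45 and 4.75. The value of 5.45 is that of CEPT EB 13, where DPPA2 probe 195 had 0 reads and stands at the prior count. The differences of endoderm from the other 3 groups, and those between all 4 groups in the ratio of DPPA4 to DPPA2, each had p = 0.0286 (adjusted p = 0.0495, exact permutation test), the smallest the design allows. By mean log2 CPM over its probes, the order of groups was hESC, mesoderm, Y27 EB, CEPT EB, ectoderm and endoderm for DPPA2. It was hESC, Y27 EB, CEPT EB, ectoderm, endoderm and mesoderm for DPPA4, and hESC, endoderm, mesoderm, Y27 EB, CEPT EB and ectoderm for DNMT3B. Neighbours in each order whose libraries overlapped in this mean were Y27 EB and CEPT EB, and CEPT EB and ectoderm, for all 3 genes. Mesoderm and Y27 EB also overlapped for DPPA2 and DNMT3B, and mesoderm and endoderm for DPPA4 and DNMT3B. The other neighbours did not overlap. For DPPA4, CEPT EB and ectoderm overlapped with probe 196 in the mean, but not for probe 197 or 198 alone. The DPPA2 mean in CEPT EB holds counts of 0, which stand at the prior count. DPPA2 probes 194 and 195 averaged 22.5 and 37.1 CPM in CEPT EB against 16.8 and 33.8 in Y27 EB. Probe 193 went the other way, at 4.97 against 5.85.

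No difference between the CEPT and Y-27632 arms was called for these genes. Of the 8 probes 0 were called, where 23.6% of the 867 tested probes were, and 0 of 8 had an unadjusted p under 0.05 by edgeR, with 0 called by DESeq2 as well. The difference CEPT EB minus Y27 EB was -0.04 (log2, 95% interval -0.21 to 0.14) for DPPA4 probe 198 and -0.19 (-0.40 to 0.02) for DPPA4 probe 197. It was 0.09 (-0.19 to 0.38) for DNMT3B probe 192 and -0.21 (-0.51 to 0.10) for DNMT3B probe 191. For DPPA2 it was 0.11 (-0.40 to 0.62) for probe 195, and 0.41 (-0.00 to 0.82) for probe 194 with p = 0.0593 unadjusted (edgeR). Without Y27 EB 10, the library with the highest value of DPPA2 probe 194 in its arm (38.2 CPM), that probe was called higher in CEPT EB, at 0.57 (log2).

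The arms' comparison depended on scaling. With library totals alone, or with the reference genes, 4 of 8 probes were called lower in CEPT EB (DNMT3B 191 and the 3 DPPA4 probes). The median of all tested probes then moved from -0.04 to -0.36 and -0.51. Relative to the reference-gene median, DNMT3B probe 191 was at -0.19 and DPPA4 probes 196, 197 and 198 at -0.16, -0.16 and 0.00. The share of all tested probes called under these scalings is not given here, so the count does not set the members apart. The log2 ratios between the 3 genes, in which scaling cancels, differed between the arms by -0.05, 0.03 and 0.08, and none passed (permutation test, adjusted p = 0.91, 0.921 and 0.752). The spread between libraries did not differ detectably either. The SD of DPPA2 was 0.78 over the CEPT EB libraries against 0.45 over those of Y27 EB (log2, n = 16 each; permutation test of deviations, p = 0.097, adjusted p = 0.291), with the CEPT EB libraries that had 0 reads among them. The SDs of DPPA4 were 0.34 and 0.25 and those of DNMT3B 0.39 and 0.41.

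DNMT3B was compared within each arm with NANOG, a core pluripotency transcription factor. NANOG, as the mean of 2 probes on the log2 scale, had a lowest, median and highest level of 0.544, 11.3 and 43.1 CPM in CEPT EB, while Y27 EB had 0.544, 6.99 and 28.1 CPM. The lowest value is the prior count alone, in CEPT EB 13 and Y27 EB 15. For DNMT3B and NANOG, Pearson's r was 0.64 in CEPT EB (permutation test, p = 0.00644, adjusted p = 0.0692 over 18 tests) and 0.57 in Y27 EB (p = 0.0212, adjusted p = 0.0835). Spearman's rho was 0.79 (permutation test, adjusted p = 0.0101) and 0.51 (adjusted p = 0.292). By the adjusted p of r, 0 of 18 relations passed. Without the 2 libraries farthest from the median of DNMT3B, r was 0.50 and 0.42, and with each library left out in turn it stayed between 0.54 and 0.70 for CEPT EB, with 0.46 as the lowest and 0.63 as the highest value for Y27 EB. Without the shallow Y27 EB 15, r in Y27 EB was 0.46 (adjusted p = 0.294), and the adjusted p of the unchanged 0.64 in CEPT EB was 0.0461. With library totals alone, r was 0.52 for CEPT EB (adjusted p = 0.0983) and 0.35 for Y27 EB (adjusted p = 0.29).

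DPPA2 with NANOG had r = 0.62 in CEPT EB (permutation test, adjusted p = 0.079; 0.37 without the 2 farthest libraries). DPPA2 with DPPA4 had r = 0.15 for CEPT EB and -0.28 for Y27 EB (permutation test, adjusted p = 0.609 and 0.412). DPPA4 with DNMT3B had r = 0.14 and 0.30 (permutation test, adjusted p = 0.609 and 0.412). DNMT3B with the summed reads of the pluripotency list had r = 0.62 for CEPT EB and 0.56 for Y27 EB (permutation test, adjusted p = 0.0692 and 0.0835). Without Y27 EB 15 these were 0.62 and 0.75 (adjusted p = 0.0461 and 0.0216 by permutation test). Over all libraries of an arm, r without the 2 farthest libraries was 0.23 for CEPT EB and 0.39 for Y27 EB. Spearman's rho was 0.39 and 0.49 (permutation test, adjusted p = 0.366 and 0.292). With library totals alone, r was 0.78 for CEPT EB and 0.82 for Y27 EB (permutation test, adjusted p = 0.0036 and 0.00144). Whether this relation passed thus depended on scaling. The libraries of an arm share medium and time but differ in depth and cell makeup, whose part in these relations was not tested.

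**Figure D4:**
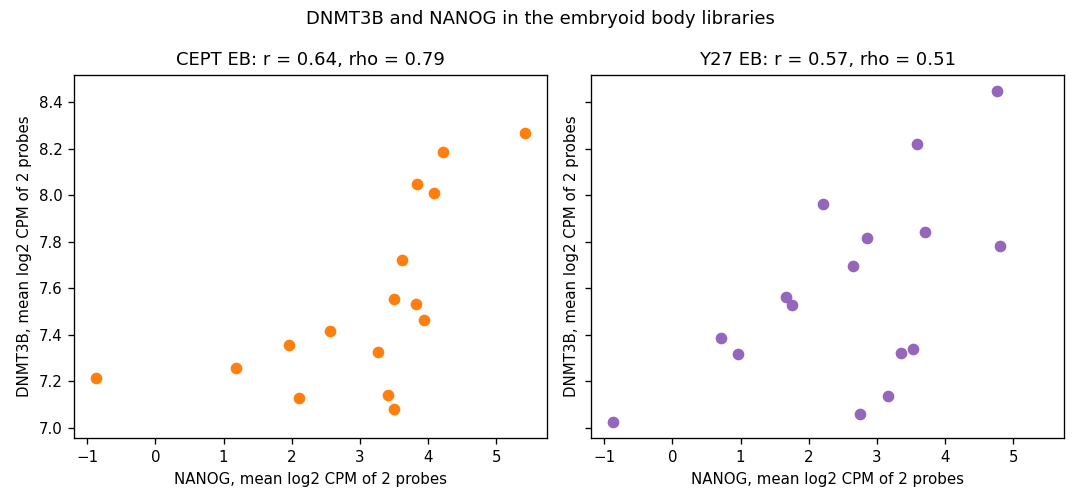
DNMT3B against NANOG in the 16 CEPT EB and 16 Y27 EB libraries, each as the mean log2 CPM of its 2 probes; each point is a library. Pearson's r is 0.64 and 0.57, neither of which passed after adjustment, and the points at the far left hold no NANOG reads.

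The genes most like each member across the 6 group means, by Pearson's r over 392 other genes, are given as a description of 6 points that share libraries. For DPPA2 they were APLN (0.994), a peptide ligand, SLC25A5 (0.951), SLC30A1 (0.937), PRKCA (0.890) and MT1X (0.884). For DPPA4 they were CSRP1 (0.940), UGP2 (0.932), MT2A (0.897), MT1G (0.896) and SEPHS1 (0.867). For DNMT3B they were SEPHS1 (0.961), JARID2 (0.957), an accessory subunit of Polycomb repressive complex PRC2, CD9 (0.925), MYC (0.921) and NR5A2 (0.914). DPPA2 with DPPA4 had 0.806.

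Across the 32 EB libraries, after subtracting arm means, DNMT3B was most like NODAL (0.693), GDF3 (0.680), ZIC2 (0.677), FGFBP3 (0.671) and NANOG (0.667). NODAL and GDF3 are TGF-beta family ligands of pluripotent cells. DPPA4 was most like CNBP (0.659), PRDX1 (0.652), CCT3 (0.638), RPRD1A (0.638) and GSTP1 (0.581). DPPA2 probe 195 was most like ZIC1 (0.833), MEF2C (0.719), PTGDS (0.716), CPE (0.708) and LGI1 (0.686), but this rested on 1 library. Without CEPT EB 13, ZIC1 stood at 0.120 and MEF2C at -0.086, and 0 of those 5 genes stayed among the 5 most alike, against 5 of 5 for DNMT3B and 4 of 5 for DPPA4. Without Y27 EB 15, 2 of the 5 for DNMT3B stayed.

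Other pluripotency genes give the setting. Of a list of 35, 23 were on the panel and 22 were tested against hESC. In ectoderm 15 were lower and 3 higher, in mesoderm 20 lower and 2 higher, in endoderm 13 lower and 9 higher, and in each EB arm 18 lower and 2 higher. Ranked with these 22 from the largest decrease, DNMT3B was 8 of 25 in both EB arms and DPPA4 was 16 of 25. With reference-gene scaling the EB counts were 11 lower in CEPT EB and 10 in Y27 EB. Between the EB arms 18 were tested, with 2 higher in CEPT EB and 2 lower. TRIM22 was higher by 1.19 (26.5 against 11.5 CPM) and LIN28B, named after its value was seen, by 0.17, while FOXD3, a factor of pluripotent and neural crest cells, was at -0.39 (441.1 against 571.4 CPM) and SOX2 at -0.29 (271.2 against 327.0 CPM). With reference-gene scaling 0 were higher and 5 lower.

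The 3 called genes of the list with the largest change in each comparison are given next, which by that choice lie at the ends of the list. NANOG averaged 1982 CPM in hESC and 3.47 CPM in mesoderm, with 41.6 for CEPT EB and 31.4 for Y27 EB, and had 1 read in all ectoderm libraries together. GDF3 had 0 reads in every ectoderm library, at least 224-fold lower than hESC when each library is set to 3 reads. IDO1, a tryptophan-degrading enzyme, had 0 reads in ectoderm and in mesoderm, at least 74.8-fold lower in each. SOX2 averaged 725.6 CPM in hESC against 1.60 in mesoderm and 3.71 in endoderm. LCK averaged 45.7 CPM in hESC against 0.384 in CEPT EB and 0.509 in Y27 EB, TDGF1 2226 against 112 in CEPT EB, and POU5F1 9.69 against 0.117 in Y27 EB. In endoderm the Nodal inhibitors LEFTY1 and LEFTY2 were higher by 8.48 and 12.79 (log2).

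Of 24 further genes of DNA methylation and chromatin, 2 were on the panel, and both were lower than in hESC in all 5 groups by edgeR. JARID2 was at -2.33, -3.06, -2.41, -2.18 and -2.28 (log2) in ectoderm, mesoderm, endoderm, CEPT EB and Y27 EB. HMGA1, an architectural protein that binds AT-rich DNA, was at -0.55, -1.34, -1.40, -1.99 and -1.93. Scaled to the reference genes, 1 of the 2 stayed called in ectoderm. Neither was called between the EB arms (JARID2 0.06, HMGA1 -0.10), but with that scaling 1 of the 2 was called lower in CEPT EB.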

How the data were processed

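The authors deposited raw read counts per probe, made with a custom aligner per the series' design text, and its settings are not given in the sources used here. The submitters' processing notes also name hg38 and DESeq2. Columns of 48 libraries were used, and 16 further columns of the merged table matched no sample and were not used. Members, gene lists and tests were chosen with earlier results of these data known.

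Low counts were removed with filterByExpr, TMM set the scaling, and edgeR 4.0.16 (R 4.3.3) gave two-sided quasi-likelihood tests in robust mode, with Benjamini-Hochberg adjustment over all tested probes and a threshold of 0.05. The hESC and lineage groups shared a fit of 16 libraries, the arms a fit of 32, and each arm against a control group used its own 2 groups. CPM (with a prior count of 2 on the log2 scale) were scaled over all 48 libraries, so a ratio of CPM can differ from a fold change, whose scaling is that of its own fit. Ratios were tested by exact permutation, and by 100000 resamples between the arms, as were correlations and spread. List genes were taken by their most abundant probe, and the 3 called genes with the largest change per comparison were named, as were the 5 genes most like each member with at least 10 mean reads. Alternatives were DESeq2 1.42.0 and other scalings, filters, fits and libraries left out. The edgeR and permutation steps were tested on simulated data. Positions were read on GENCODE release 29 and promoters from RefSeq. Python 3.11.15, scipy 1.17.1 and matplotlib 3.10.9 were used.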

Additional observations from a re-analysis of the deposited data

How the results depend on the processing

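Against hESC, 869 of 871 values of a probe under an alternative kept direction and call, and the other 2 are DPPA4 probes 197 and 198 in Y27 EB with reference genes. In the other comparisons 1957 of 2135 did, 131 lost and 35 gained a call, and 12 reversed. Reversed with library totals alone were, between mesoderm and endoderm, DNMT3B probes 191 (0.32) and 192 (0.17) and DPPA4 probes 197 (0.41) and 198 (0.27). Between Y27 EB and endoderm they were DNMT3B probes 191 (0.31) and 192 (0.36) and DPPA4 probe 196 (0.86), and between Y27 EB and ectoderm DNMT3B probe 192 (0.63). With upper-quartile factors DNMT3B probe 191 (0.044) and DPPA4 probe 197 (0.13) reversed between mesoderm and endoderm, and with reference genes DNMT3B probe 191 against mesoderm (0.11) and probe 192 against endoderm (0.005) in Y27 EB. In Y27 EB against endoderm the median of all tested probes was 0.35 by TMM and 1.27 with library totals alone. The cause was not tested.

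Counts of called member probes moved as follows. The share of all tested probes called in these fits, and in those with the replicate block below, is not given here. These moves therefore do not set the member probes apart from the rest of the panel. CEPT EB against Y27 EB went from 0 to 4 with library totals or reference genes. Ectoderm against mesoderm went from 6 to 3 with no filter and 1 in a single fit of 48 libraries, and ectoderm against endoderm from 7 to 2 in that fit. Mesoderm against endoderm went from 7 to 3 (upper quartile), 4 (reference genes) and 2 (single fit). Probes summed per gene gave 1 of 3 genes in CEPT EB against ectoderm and in Y27 EB against mesoderm. Requiring 10 reads in each library left 4 probes in Y27 EB against hESC and against endoderm, and all 4 were called. Leaving out a library gave 0 to 1 for CEPT EB against Y27 EB, 4 to 7 for ectoderm against mesoderm and for mesoderm against endoderm (4 without endoderm library 1 or mesoderm library 3), and 3 to 7 for Y27 EB against endoderm. Relations passing by r went from 0 of 18 to 1 with a prior count of 5, 3 without the shallow library and 2 with library totals.

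With the replicate block, Y27 EB against ectoderm went from 3 to 5 called probes, and 0 to 8 were called in the other comparisons, each within 1.5 times the count without it. Same-numbered libraries of the arms did not deviate together (median r -0.01, 3 of 16 pairs over 0.1). Those of the lineages did in part. The median r was 0.18 for ectoderm and mesoderm (3 of 4 pairs over 0.1) and 0.15 for ectoderm and endoderm (3 of 4). For mesoderm and endoderm it was 0.10 (2 of 4). In no pair of groups did every same-numbered pair exceed 0.1, so the main fits did not pair libraries by number. With the block, 6, 8 and 7 probes were called in these lineage comparisons, against 6, 7 and 7 without it. Whether the lineage libraries are paired was not settled. Depth limits DPPA2 probe 193, which had 0 to 50 reads in CEPT EB.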
